A study of Homo sapiens with 6 samples.

Results

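The placental miRNA cluster of chromosome 19 is a run of related miRNA genes that is found in primates and was followed here in MDA-MB-231 cells, a human breast cancer line without the estrogen and progesterone receptors or HER2 amplification. Its members were taken by name, as every row of the deposited table named miR-498, miR-512, miR-515 to miR-527, miR-1283 or miR-1323, with any letter, copy or arm. This gave 34 of the 1582 rows. Small RNA had been sequenced from 3 libraries of non-transfected MDA-MB-231 cells (control) and from 3 libraries of MDA-MB-231 cells given lentiviral RARαS77A, a mutant of retinoic acid receptor α that lacks a serine phosphorylated by the CDK7 kinase complex. All libraries thus came from 1 cell line, and because the control received no vector, the mutant receptor and its delivery cannot be told apart. Nothing in the sources used here says whether the libraries of a group came from separate cultures, so the tests measure the spread between these libraries, which may be technical.

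In the textbook picture, the cluster is transcribed in the placenta, mainly from the paternal chromosome, and is also active in undifferentiated embryonic cells, while it is silent in most adult tissues. Its precursors arose by repeated duplication between Alu elements, so that many mature miRNAs differ by few bases and several are identical. A large group of the 3p arms carries a seed, the bases that pair with target mRNAs, close or equal to that of the miR-302 and miR-372 families of pluripotent stem cells. Reactivation of the cluster is known from some embryonal brain tumours and has been described in other cancers.

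In GENCODE 29 (GRCh38), the 46 precursors of the cluster lie on the plus strand at chr19:53666679-53762430, over 95752 bases. Of these, 45 are intergenic, and the last, MIR519A2, lies in an exon of the long non-coding RNA gene AC011453.1. No miRNA gene is annotated on the minus strand within the cluster. Mature sequences from RefSeq (GRCh38.p14) were found for 32 of the 34 members. Those that the results turn on are shown with the seed, bases 2 to 8, in capitals. miR-522-3p, which had at least 10 counts in a library, is named only, as no sequence was found for it. The first 4 shown are the other members with at least 10 counts in a library. The next, miR-516b-5p, is 1 of 3 members at 0 in control replicates 1 and 2 and above 0 in each of the other libraries. The last group shows the shared seeds, with miR-302a-3p, miR-372-3p and miR-17-5p as comparison from outside the cluster.
miR-1283: uCUACAAAggaaagcgcuuucu
miR-516a-5p: uUCUCGAGgaaagaagcacuuuc
miR-519a-3p: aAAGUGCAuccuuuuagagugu
miR-519c-5p: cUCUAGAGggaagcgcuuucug
miR-516b-5p: aUCUGGAGguaagaagcacuuu
miR-520a-3p: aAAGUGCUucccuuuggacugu
miR-302a-3p: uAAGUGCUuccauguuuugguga
miR-372-3p: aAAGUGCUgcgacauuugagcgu
miR-519d-3p: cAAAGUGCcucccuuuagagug
miR-17-5p: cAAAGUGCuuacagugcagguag

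Control replicate 3 stood apart from the other controls and near the RARαS77A libraries in the low members of the cluster and in miRNAs of pluripotent stem cells, with values given further on. The cluster as a whole was at a trace level in every library. The 34 members together held between 201 and 251 counts per library, out of 9019266 to 11338580. As CPM, counts per 1000000 of the library's total, without further scaling, this was 19.3, 22.1 and 22.8 in control replicates 1, 2 and 3 and 20.7, 21.7 and 21.4 in RARαS77A replicates 1, 2 and 3. The means were 21.4 ± 1.85 for control against 21.3 ± 0.501 for RARαS77A (SD, n = 3 per group), and the groups overlapped. After TMM scaling, which corrects for the large share of a few abundant miRNAs, the same sums were 17.5 ± 1.11 and 26.0 ± 0.524 CPM (SD, n = 3 per group), without overlap. Whether the summed level differed thus depended on the scaling. Fewer cells with such a miRNA and less of it per cell cannot be told apart in these bulk libraries. A sum over members chosen with earlier results known was given no test.

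More members were detected in RARαS77A libraries. At least 1 count was found for 10, 11 and 17 members in control replicates 1, 2 and 3, and for 21, 21 and 19 members in RARαS77A replicates 1, 2 and 3. Over the whole table the order was the other way, with 1084 to 1164 rows detected in control and 989 to 1037 in RARαS77A libraries. Many of these detections rested on 1 or 2 counts. At least 3 counts were reached by 5, 5 and 9 members in the control and by 8, 10 and 7 members in the RARαS77A libraries, which overlapped. At least 10 counts were reached by 4 members in each of the 6 libraries. A member with 0 counts in a library had an upper limit of 3 counts there, or 0.265 to 0.333 CPM of the total.

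Most counts came from a handful of members, and those members can all come from the far end of the cluster. miR-522-3p (454 counts over the 6 libraries), miR-1283 (334) and miR-516a-5p (273) together made up 80.6% to 90.0% of the cluster's counts in control and 74.6% to 79.4% in RARαS77A libraries. They were followed by miR-519a-3p with 57 and miR-519c-5p with 55 counts. Every one of the other 29 members had fewer than 10 counts in each library. MIR522, MIR519A1, MIR527, MIR516A1, MIR1283-2, MIR516A2 and MIR519A2 are the last 7 precursors and lie within 11220 bases at chr19:53751211-53762430. This stretch was marked out after the counts had been seen, and the counts by position are a description.

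By sequence, miR-516a-5p and miR-519a-3p have copies only in this stretch. miR-522-3p, for which no RefSeq sequence was found, was placed at MIR522 by its name alone. miR-1283 has another copy, MIR1283-1, nearer the start of the cluster, and the mature sequence of miR-519c-5p is shared by 6 precursors, of which MIR519A1 and MIR522 lie in the stretch. With miR-520b-5p, whose sequence is also that of miR-519a-2-5p from MIR519A2, 6 members have a copy there. They held 97.1%, 97.6% and 88.3% of the cluster's counts in control replicates 1, 2 and 3. In RARαS77A replicates 1, 2 and 3 they held 84.6%, 87.0% and 87.9%. The stretch begins 2488 bases after the end of MIR521-1, and the row for miR-521, which can come from that precursor or from MIR521-2, had 0 or 1 count in each library.

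**Figure D1:**
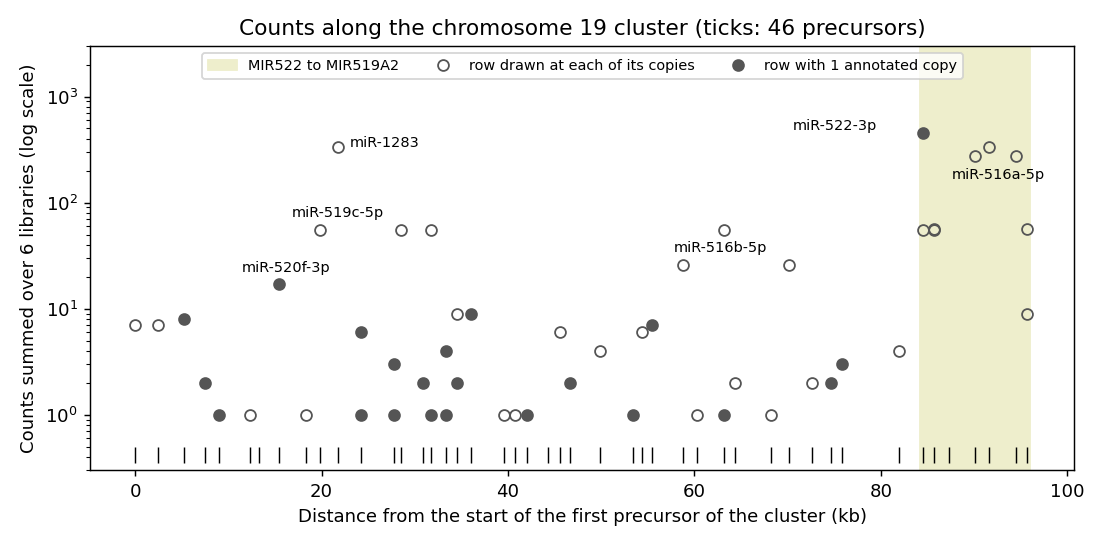
Counts summed over the 6 libraries (vertical axis, log scale) for each member, drawn at the distance in kb of its precursor from the first precursor of the cluster, with open circles for members that have several copies and ticks for the 46 precursors. miR-522-3p, at 454 counts, and miR-516a-5p, at 273, lie in the shaded stretch of 11220 bases at the end of the cluster, and the highest members with no copy there are miR-516b-5p with 26 and miR-520f-3p with 17 counts.

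Of the 34 members, 3 passed edgeR's expression filter and were tested between the groups. These were miR-522-3p, miR-516a-5p and miR-1283, and the test was edgeR's quasi-likelihood test after TMM scaling, with p-values adjusted by Benjamini-Hochberg over all 506 miRNAs that passed. Of these, 1 rose and 1 fell. Over all miRNAs tested, 23.3% rose and 21.1% fell, and in either direction 44.5% were called. In TMM-normalised CPM the groups did not overlap for 58.1% of them, and for 2 of the 3 members. A call in each direction among 3 members is close to that background.

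miR-522-3p rose in RARαS77A cells. It had 55, 86 and 50 counts in the control and 90, 84 and 89 in the RARαS77A libraries. The raw counts overlapped. As CPM of the library's total they were 5.09, 7.58 and 5.54 in the control and 9.28, 8.18 and 8.89 in the RARαS77A libraries, so that all RARαS77A libraries lay above all controls. The TMM-normalised mean went from 4.94 ± 0.787 to 10.7 ± 0.722 CPM (SD, n = 3 per group), also without overlap. This was a log2 fold change of 1.11 with a standard error of 0.18 (edgeR, adjusted p = 0.00247). With total counts as the only scaling, the log2 fold change was 0.53 and no longer passed the limit (adjusted p = 0.0679, edgeR). Without control replicate 3 the log2 fold change was 1.01 (edgeR, adjusted p = 0.0118), and with a model term that set control replicates 1 and 2 apart it was 1.23 (edgeR, adjusted p = 0.0223). Among miRNAs ordered by count, miR-522-3p stood between ranks 285 and 311 in control and between 237 and 245 in RARαS77A libraries.

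miR-516a-5p fell in RARαS77A cells, by a test that was close to its limit. It had 57, 74 and 59 counts in the control and 26, 28 and 29 in the RARαS77A libraries. In TMM-normalised values these were 4.57, 5.03 and 5.39 CPM against 3.31, 3.33 and 3.49 CPM. All RARαS77A libraries lay below all controls, and the mean went from 5.0 ± 0.41 to 3.38 ± 0.0994 CPM (SD, n = 3 per group). This was a log2 fold change of -0.56 with a standard error of 0.16 (edgeR, adjusted p = 0.0241). The call was lost when any 1 of the 6 libraries was left out, with adjusted p from 0.0525 to 0.0955 (edgeR), and with DESeq2 (adjusted p = 0.170). With the term setting control replicates 1 and 2 apart it was -0.67 (edgeR, adjusted p = 0.0964). The log2 fold change was negative in every setting run and was -1.14 with total counts as the only scaling (adjusted p = 0.00162, edgeR).

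For miR-1283 no difference was detected. Its counts were 67, 66 and 57 in the control and 34, 65 and 45 in the RARαS77A libraries. This was 5.02 ± 0.471 CPM against 5.83 ± 1.74 CPM after TMM scaling (SD, n = 3 per group), with RARαS77A replicate 1 at 4.32 CPM below every control and replicate 2 at 7.74 CPM above every control. The log2 fold change of 0.22 had a standard error of 0.24 (edgeR, adjusted p = 0.490). Its sign depended on the scaling, as it was -0.35 with total counts only, and on RARαS77A replicate 2, without which it was -0.024.

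Across the table, a change from TMM to total counts moved the median log2 fold change of the 506 miRNAs from 0.06 to -0.51. For that reason the members were also set against each other within each library, where the scaling cancels. The ratio of miR-522-3p to miR-516a-5p counts was 0.965, 1.16 and 0.847 in the control and 3.46, 3.00 and 3.07 in the RARαS77A libraries. These members, whose precursors all lie in the same 11220 bases, thus had near-equal counts in control cells and 3-fold different counts in RARαS77A cells. The log2 ratio was higher by 1.69 (standard error 0.15) in RARαS77A libraries, and the groups were apart (two-sided exact permutation p = 0.1, where no smaller value is possible with 3 libraries against 3). It was the largest of 3 ratios compared, and p adjusted over them was 0.15. The ratio of miR-1283 to miR-516a-5p went from 1.01 ± 0.147 to 1.73 ± 0.529 (SD, n = 3 per group), also without overlap (two-sided exact permutation p = 0.1, adjusted 0.15). The ratio of miR-522-3p to miR-1283 overlapped between the groups (two-sided exact permutation p = 0.2). The ratios were chosen after the counts had been seen.

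**Figure D2:**
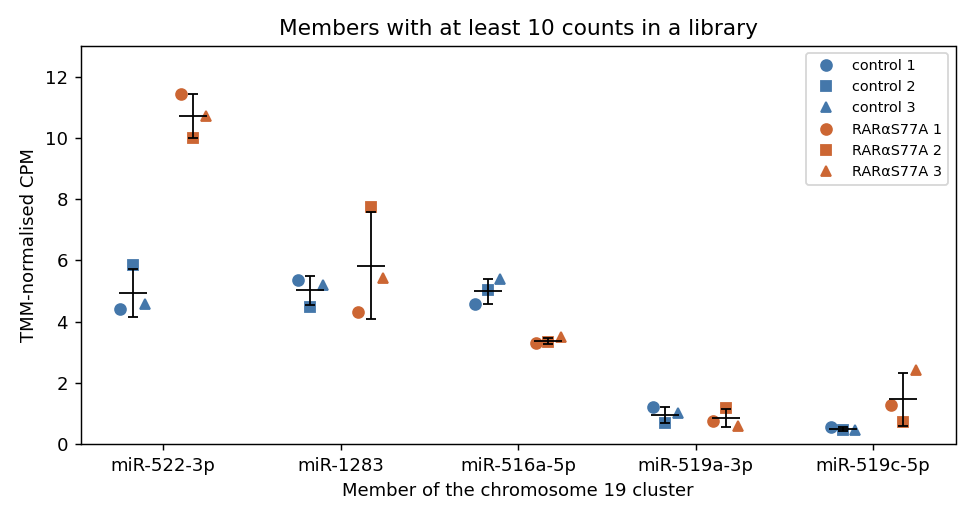
TMM-normalised CPM (vertical axis) of the 5 members with at least 10 counts in a library, with a symbol for each of the 3 control (blue) and 3 RARαS77A (orange) libraries and black bars for the mean and SD. For miR-522-3p the RARαS77A libraries, with a mean of 10.7 CPM, all lie above the controls at 4.41 to 5.85 CPM, and for miR-516a-5p they lie between 3.31 and 3.49 CPM, below the controls at 4.57 to 5.39 CPM.

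The next members were too sparse for the filter. miR-519a-3p had 15, 10 and 11 counts in the control and 6, 10 and 5 in the RARαS77A libraries, and its TMM-normalised values overlapped. miR-519c-5p had 7, 7 and 5 counts in the control and 10, 6 and 20 in the RARαS77A libraries. These overlapped as counts and as CPM of the total, while the TMM-normalised values were apart, at 0.457 to 0.561 CPM in control against 0.714 to 2.41 CPM in RARαS77A libraries. It did not pass the filter of the main test. In the 3 settings that tested it with all 6 libraries, the log2 fold change was 1.36 without a filter, 1.44 with a minimum count of 3 and 1.46 with DESeq2, and it was not called (adjusted p = 0.0689 and 0.0694 with edgeR and 0.165 with DESeq2). It passed the filter when any 1 control library was left out, but only through RARαS77A replicates 1 and 3, where it was highest. It was again not called, at 1.43 to 1.62 (edgeR, adjusted p from 0.0801 to 0.0936). When RARαS77A replicate 2, its lowest RARαS77A library, was left out, it was called higher, by 1.87 on the log2 scale (edgeR, adjusted p = 0.0190). Here too it passed the filter only through RARαS77A replicates 1 and 3. As the group where it was high decided whether it was tested, no conclusion is drawn from these left-out settings. Its row may stand for several miRNAs, because RefSeq gives the same 22 bases under 5 other names, miR-518e-5p, miR-519a-5p, miR-519b-5p, miR-522-5p and miR-523-5p, and 0 of these have a row of their own. It differs by 1 base from the sequence of miR-526a-5p, which had 1 count in all. miR-516a-5p differs by 3 bases from miR-516b-5p, its nearest relative in the cluster when aligned from the first base.

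miR-520b-5p, the last of the members with a copy in the stretch, had 2, 2 and 0 counts in the control and 4, 1 and 0 in the RARαS77A libraries, which overlapped.

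**Figure D3:**
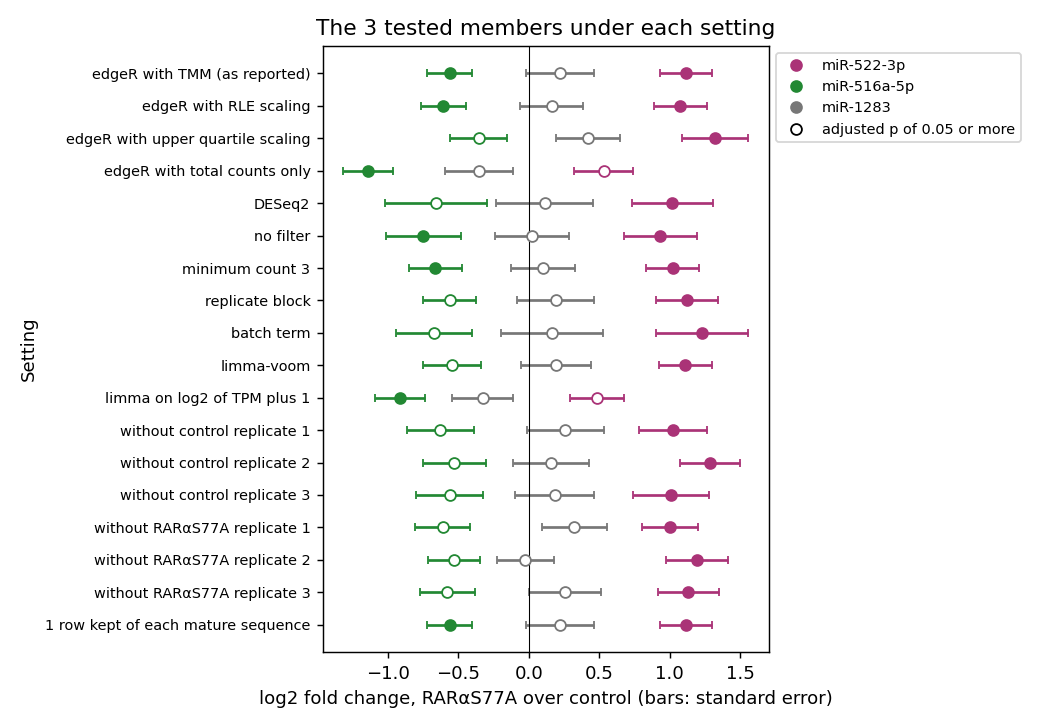
log2 fold change of RARαS77A over control (horizontal axis, bars for the standard error) for the 3 tested members under each setting (vertical axis), with open circles where the adjusted p was 0.05 or more. miR-522-3p stays right of 0, from 0.48 to 1.32, miR-516a-5p stays left of 0, from -1.14 to -0.36, and miR-1283 crosses it.

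The 28 members without a copy in the end stretch separated control replicates 1 and 2 from the other libraries. Together they had 6 counts in control replicate 1 and 6 in control replicate 2, but 24 in control replicate 3 and 31, 29 and 26 in RARαS77A replicates 1, 2 and 3. As shares this was 0.555 (95% Wilson interval 0.255 to 1.21) and 0.529 (0.243 to 1.15) CPM in control replicates 1 and 2, and 2.66 (1.79 to 3.96) in control replicate 3. RARαS77A replicates 1, 2 and 3 had 3.20 (2.25 to 4.54), 2.82 (1.97 to 4.06) and 2.60 (1.77 to 3.80). On this scale control replicate 3 lay within the range of the RARαS77A libraries, and its interval did not meet those of the other controls. These intervals cover counting error only. In raw counts and after TMM scaling, all RARαS77A libraries also lay above all controls. The TMM-normalised sums were 0.481, 0.408 and 2.19 CPM in control replicates 1, 2 and 3. They were 3.94, 3.45 and 3.13 CPM in RARαS77A replicates 1, 2 and 3. As the split of control replicate 3 from the other controls was seen in the data and control replicate 3 is 1 library, it was not tested.

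The 6 members with a copy in the stretch showed no such split. As CPM of the total they had 18.8, 21.6 and 20.2 in control replicates 1, 2 and 3 and 17.5, 18.9 and 18.8 in the RARαS77A libraries, with overlapping Wilson intervals throughout. After TMM scaling they had 16.3, 16.7 and 16.6 CPM in the control and 21.6, 23.1 and 22.6 CPM in the RARαS77A libraries. On that scale the groups did not overlap, and control replicate 3 lay with the other controls.

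Among the 28, miR-516b-5p, a product of MIR516B1 and MIR516B2, had the most counts. It had 0 counts in control replicates 1 and 2, 6 in control replicate 3 and 9, 5 and 6 in RARαS77A replicates 1, 2 and 3. miR-1323 had 0, 0 and 3 counts in the control and 2, 1 and 2 in the RARαS77A libraries, and miR-520g-3p had 0, 0 and 2 against 1, 3 and 1. These were the only members at 0 in control replicates 1 and 2 and above 0 in each of the other libraries, 3 of 34, where this was so for 18 rows or 1.14% of the whole table. miR-520f-3p was similar, with 0, 2 and 3 counts against 5, 4 and 3. In all, 20 members had counts in control replicate 3 or a RARαS77A library and none in control replicates 1 and 2, which was so for 16.2% of all rows. The opposite, counts in control replicate 1 or 2 only, held for miR-498-5p and miR-515-5p, against 10.3% of all rows. With counts in both control replicates 1 and 2 and in none of the other libraries there were 0 members, against 1.96% of all rows. Of the 20, 13 had counts in RARαS77A libraries only, at most 2 in any library. Of all rows, 9.04% had counts in RARαS77A libraries only.

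The same 4 libraries held miRNAs known from pluripotent stem cells at far higher counts. A list of 10 such miRNAs, arms of miR-302, miR-367, miR-371a, miR-372 and miR-373, summed to 2 and 1 counts in control replicates 1 and 2, to 4879 in control replicate 3, and to 3614, 3725 and 3787 in RARαS77A replicates 1, 2 and 3. In CPM of the total these were 0.185 and 0.0882, then 541, and 363 to 378 in the RARαS77A libraries. All 10 were detected in each of the 4 libraries, and 8 of the 10 were at 0 in both of the other controls. Whether this difference has a part in the counts of the cluster was not tested.

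Part of that list is the nearest neighbour of the cluster. MIR371A begins 25244 bases after the end of MIR519A2, followed by MIR372 and MIR373. Their 6 sense arms summed to 0 counts in control replicates 1 and 2, 860 in control replicate 3 and 647, 657 and 666 in RARαS77A replicates 1, 2 and 3. In control replicates 1 and 2, the members with a copy in the end stretch thus had 203 and 245 counts and these neighbours 0. miR-372-3p alone had 786 counts in control replicate 3, against 24 counts there of the 28 members without a copy in the stretch. The antisense partners miR-371b-5p and miR-371a-3p had identical counts in every library, and without stated use of strand their reads cannot be told apart. The cluster itself has no such pair.

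The other marker lists had other patterns, given here as CPM of the total. Muscle miRNAs (5 rows) summed to 94.9 in control replicate 1 and to 6.19 to 8.20 in the other libraries. Endocrine miRNAs (3 rows) summed to 78.1 in control replicate 2 and to 3.33 to 6.65 elsewhere. The liver list (2 rows) summed to 8.91 in control replicate 2 and to 34.7 to 53.7 elsewhere. In each library, only 1 row of the liver list and 2 rows of the endocrine list reached 3 counts. Blood miRNAs were higher in control replicates 1 and 2, at 36.7 and 45.4, than in control replicate 3, at 33.6, and the RARαS77A libraries, at 32.7, 25.5 and 23.7, so that this list was divided along the same line in the opposite direction, and also by group. The epithelial list was apart by group, at 106, 119 and 125 in control and 87.5, 95.1 and 91.0 in RARαS77A libraries. After TMM scaling the blood list overlapped between the groups. Control replicates 1 and 2, at 31.8 and 35.0 CPM, then lay below RARαS77A replicate 1, at 40.3 CPM. The epithelial list was higher in RARαS77A after TMM scaling, at 111 ± 4.40 against 95.4 ± 6.59 CPM (SD, n = 3 per group). The list for MDA-MB-231 itself, which includes miR-21-5p and miR-100-5p, made up 60.7% to 65.2% of all counts in control and 67.5% to 70.6% in RARαS77A libraries. The part of these lists in the differences of the cluster was not tested. The lists were drawn up with earlier results of these data known.

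**Figure D4:**
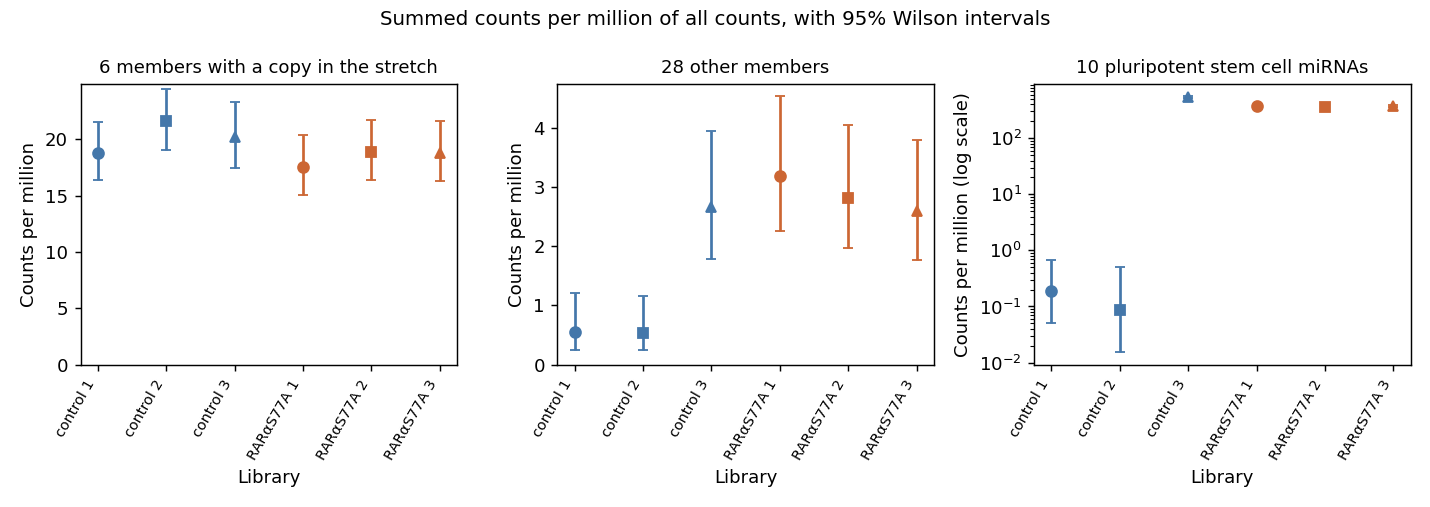
Summed CPM of all counts in each of the 6 libraries (horizontal axis) for the 6 members with a copy in the end stretch, the 28 other members and 10 miRNAs of pluripotent stem cells (log scale), with 95% Wilson intervals. The first panel shows 17.5 to 21.6 in all libraries, and in the others control replicates 1 and 2 lie below control replicate 3 and the RARαS77A libraries.

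By seed, some members belong to families with far higher counts from outside the cluster, and others stand alone. The seed AAGUGCU is carried by miR-520a-3p, miR-520b-3p, miR-520d-3p and miR-520e-3p and by miR-302a-3p, miR-302b-3p, miR-302c-3p, miR-302d-3p, miR-372-3p and miR-373-3p. The members with it had 0, 1 and 2 counts in the control and 1, 4 and 2 in the RARαS77A libraries. The miRNAs outside the cluster had 2, 1 and 3773 counts in the control and 2763, 2830 and 2827 in the RARαS77A libraries. The seed AAAGUGC, that of miR-17-5p and miR-20a-5p, which drive proliferation, occurs in miR-519d-3p and miR-526b-3p. These members had 0 counts in the control and 1 in each RARαS77A library, against 111503 to 152518 and 36766 to 50155 counts of the miR-17 family. miR-1323 shares its seed, CAAAACU, with miR-548o-3p, which had 342 to 531 counts in control and 555 to 905 in RARαS77A libraries. For miR-1283, miR-516a-5p and miR-519a-3p, no other row with a RefSeq sequence had the same seed, so that the counts of these seeds among such rows were those of the members.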

How the data were processed

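Small RNA libraries of 3 non-transfected and 3 RARαS77A samples were compared. The authors deposited read counts and TPM for 1582 miRNAs. The deposited TPM is each count scaled by its library's total, with no length term. Bowtie is named in the submitters' processing notes. For its role, version and reference, for mismatches, strand and reads with several matches, the sources used here give nothing, and reads may be split between near-identical members. Counts were tested with edgeR 4.0.16 in R 4.3.3 (filterByExpr, minimum count 10, TMM, glmQLFit and glmQLFTest, adjusted p under 0.05). The script was tested on simulated data. Standard errors are the log2 fold change over the square root of F. Single values used a two-sided exact permutation test, and intervals are 95% Wilson (scipy 1.17.1). Alternatives used DESeq2 1.42.0, limma 3.58.1, other scalings and filters, a replicate block, a term setting control replicates 1 and 2 apart, and left-out libraries. Precursors are from GENCODE 29 and sequences from RefSeq. Members were named with values if they passed the filter or had 10 counts in a library. Others were named by counts after these were seen. Members and lists were chosen with earlier results of these data known.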

Additional observations from a re-analysis of the deposited data

How the results depend on the processing

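Totals of 9019266 to 11338580 counts leave 29 of the 34 members under 10 counts in every library, and for these the depth allows statements on detection only. The number of members called higher was 1, and 0 with total counts only and with limma on log2 of TPM plus 1, which have no composition factor. It was 1 to 2 with single libraries left out, where the second was miR-519c-5p, which passed the filter only through RARαS77A replicates 1 and 3. The number called lower was 1, and 0 with upper quartile scaling, DESeq2, limma-voom, the replicate block, the term setting control replicates 1 and 2 apart and an adjusted p under 0.01, and the cause was not tested. It was 0 to 0 with single libraries left out. Over all 506 miRNAs, 118 were called higher and 107 lower in the main setting, and 51 and 213 with total counts only. The background of the member calls thus moved with the scaling. At an unadjusted p under 0.05 all settings gave 1 to 4 members in either direction, with 4 of 34 where no filter was used. The share of all rows at this unadjusted limit was not counted, so whether these numbers of members are unusual cannot be said. miR-1283 turned negative with total counts only (-0.35), with limma on TPM (-0.33) and without RARαS77A replicate 2 (-0.024, in a range of -0.024 to 0.32 with single libraries left out), and had no call in any setting. miR-522-3p kept its call in 15 of 17 alternatives and miR-516a-5p in 6 of 17, both with 1 direction. With the term setting control replicates 1 and 2 apart, under which RARαS77A is set against control replicate 3 alone, their log2 fold changes were 1.23 and -0.67 (adjusted p = 0.0223 and 0.0964, edgeR). The log2 ratio of the summed CPM, 0.57 with TMM, was -0.011 with total counts, 0.27 without the member with the most counts and 1.22 without the first 3. It was 1.77 over members with no copy in the end stretch and 0.44 over those with one, which were chosen after seeing the data, and 0.53 to 0.62 with single libraries left out. RARαS77A libraries had on average 7.67 more members detected, 2.00 more at 3 counts and 0 more at 10 counts, and 6.33 to 9.83 more with single libraries left out. Control replicate 3 held 17 members, or 9 at 3 counts. No member of the 32 with a RefSeq sequence shared its full sequence with another row, so keeping 1 row per sequence changed nothing. The 22 bases of miR-520h are, however, the first 22 of miR-520g-3p. miR-522-3p and miR-518f-3p had no RefSeq sequence to compare. The deviations of same-numbered libraries correlated at 0.0444, 0.0900 and 0.0284. No pairing by replicate number was thus visible, though this cannot show that the libraries were not handled as pairs. The replicate block gave log2 fold changes of 1.12 for miR-522-3p (adjusted p = 0.0121, edgeR) and -0.56 for miR-516a-5p (adjusted p = 0.0637, edgeR).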
